A study of Sus scrofa with 11 samples.

Results

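Pig coronary arteries kept without a stent under low flow were compared with stented pig coronary arteries kept static, by RNA sequencing of whole vessel segments. The comparison rests on 4 of 11 libraries, chosen by their labels alone: 2 libraries marked "Flow +" (called low-flow here) and 2 marked "Stent/Flow -" (called stented static). Both groups were cultured ex vivo in a bioreactor, and the remaining libraries came from native arteries (2), stented arteries under stronger flow (3, called stented high-flow) and arteries without a stent under stronger flow (2, called high-flow). The series was made to describe an ex vivo vessel culture model for the study of stents. The labels give no strain, age, flow rate or stent type, nor whether replicate libraries are from different animals.

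The groups differ in more than flow. Low-flow vessels had flow and no stent, and stented static vessels had a stent and no flow. Both stented static libraries also carry a d suffix of 3 in their names (34SS-3d-1 and 36SS-3d). The low-flow libraries (37DnS-LF and 38DnS-LF) lack it, and the groups came in separate count tables. Flow, stent, whatever the suffix stands for and the table cannot be told apart here. Stented high-flow vessels share the stent with stented static, and high-flow vessels share its absence with low-flow, but both had the stronger flow.

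The wall of a coronary artery is made mainly of smooth muscle, lined by endothelium and surrounded by adventitia and fat. Blood flow drags on the endothelium as shear stress and pressure stretches the wall, and both are known to act on gene expression in vessels. Smooth muscle cells are known to move between a contractile state, marked by genes of the contractile apparatus, and a synthetic state, marked by matrix and matricellular genes. After stenting, synthetic cells and their matrix are known to build the neointima that narrows the vessel again.

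Library totals were 21864217 and 14229777 counts in stented static and 22840082 and 26785124 in low-flow, and 3 counts in a single library correspond to between 0.105 and 0.215 counts per 1e+06 (CPM) over the 11 libraries. The low-flow libraries resembled each other more closely than the stented static libraries did. Across genes, the Pearson correlation of log2 CPM was 0.934 between the stented static libraries and 0.980 between the low-flow libraries. Stented static replicate 2 correlated more closely with low-flow replicates 1 (0.962) and 2 (0.956) than with stented static replicate 1. Mitochondrially encoded genes took 3.19% and 4.65% of the stented static counts and 5.51% and 4.23% of the low-flow counts. The Y-linked gene KDM5D had 0 counts in all 4 of these libraries and was at 9.98 to 28.4 CPM in the other 7, so values from native, high-flow and stented high-flow vessels are set beside these groups with that difference present.

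No gene passed the threshold. Of 15348 genes tested in 1 edgeR quasi-likelihood fit of all 11 libraries, 0 (0%) had a Benjamini-Hochberg adjusted p under 0.05, and the smallest adjusted p was 0.0933, shared by 21 genes. At an unadjusted p under 0.05 there were 1732 genes (11.3%), of which 821 (5.35%) were higher and 911 (5.94%) lower in low-flow. DESeq2, the tool named in the submitters' notes, called 354 of 15044 genes (2.35%) in the same design, with 191 (1.27%) higher and 163 (1.08%) lower in low-flow. limma-voom called 0 genes, with 1895 at an unadjusted p under 0.05. Both low-flow libraries lay above both stented static libraries in 3523 genes (23%) and below both in 3340 (21.8%).

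The count of calls depended on which stented static library was used. Without stented static replicate 2, 161 genes passed in edgeR (51 higher, 110 lower), and without replicate 1 only 1 gene did, HEPACAM, which was lower in low-flow. In these fits the lone stented static library is assumed to vary like the other groups. Because of this, each gene below is given in all 4 libraries, as CPM on library sizes scaled by edgeR, before its log2 fold change (low-flow minus stented static, ± standard error). Adjusted p-values are edgeR's unless DESeq2 is named, and "higher" or "lower" without a passed test describes levels only. Genes outside the 19 matched genes followed by name were chosen after their values were seen.

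**Figure D1:**
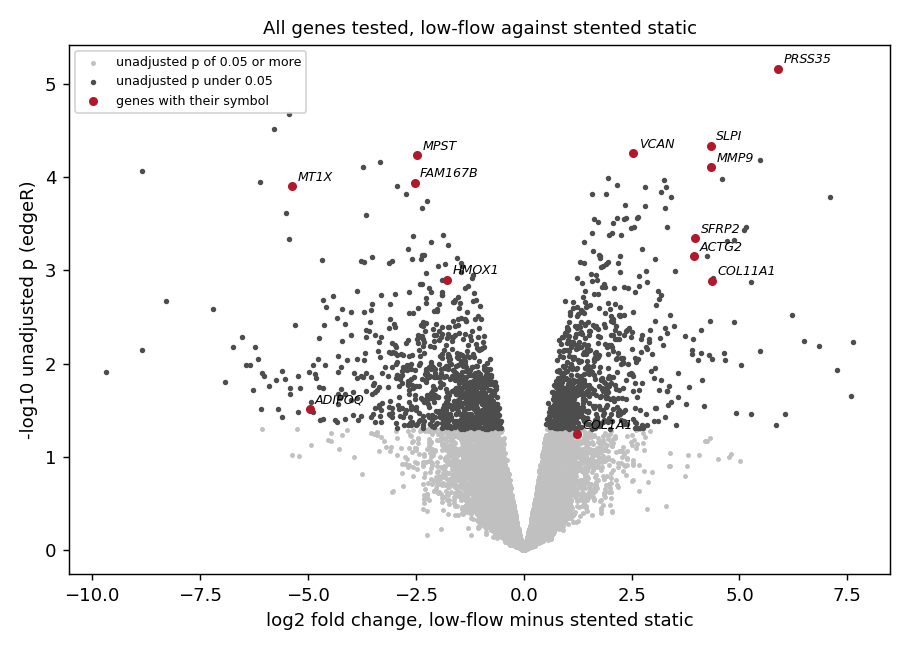
Log2 fold change (x axis, low-flow minus stented static) against -log10 of the unadjusted edgeR p (y axis) for the 15348 genes tested, 1 point a gene. A few genes picked for labelling are in red, not all genes discussed in the text. PRSS35 has the smallest unadjusted p, and COL1A1 lies among the genes with a p of 0.05 or more.

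The same fit gave calls in the other comparisons. Against native vessels, 1904 genes (12.4%) passed in low-flow and 1955 (12.7%) in stented static. Those comparisons share the native libraries, and their values stand side by side below for single genes. Low-flow against high-flow gave 16 calls (0.104%) and low-flow against stented high-flow gave 23 (0.150%). Stented high-flow against stented static gave 438 calls (2.85%), with 3 libraries on one side. Both of its groups had a stent, but the d suffix was 3 in both stented static libraries and 7 in stented high-flow replicate 3. The Y-linked genes KDM5D and EIF1AY passed in every comparison of this paragraph, so these counts of calls hold the Y-linked difference as well as flow, stent or culture.

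Matrix and matricellular genes stood among the genes that were higher in low-flow. VCAN encodes versican, a large proteoglycan of the provisional matrix that smooth muscle lays down after injury (chr2:91682177-91811674 in Sscrofa11.1). It was at 120 and 205 CPM in stented static and at 1067 and 823 CPM in low-flow. The groups did not overlap, and the log2 fold change was 2.54 ± 0.40, with an adjusted p of 0.0933 in edgeR and 3.88e-07 in DESeq2. Native vessels were at 242 and 227 CPM and stented high-flow vessels at 558 to 939 CPM, so stented static lay below native and the flow cultures above it. Against native, VCAN passed in low-flow (log2 fold change 2.01, adjusted p 0.00978) and did not in stented static (-0.53, adjusted p 0.391).

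FN1, which encodes fibronectin, a matrix glycoprotein that binds integrins, was at 1797 and 6107 CPM in stented static and at 19635 and 20909 CPM in low-flow. Both low-flow libraries were above both stented static ones, with a log2 fold change of 2.36 ± 0.66 and adjusted p-values of 0.253 in edgeR and 0.0104 in DESeq2. The log2 fold change was 1.73 with stented static replicate 1 left out and 3.51 with replicate 2 left out. Native vessels held 1495 and 1449 CPM, close to stented static replicate 1.

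CCN2, a matricellular growth factor also known as a YAP target, was at 50.4 and 93.2 CPM in stented static and at 269 and 324 CPM in low-flow. Native vessels were at 267 and 323 CPM, beside the low-flow values, and stented static lay below them (log2 fold change of stented static minus native -2.04, adjusted p 0.0104). Between the groups compared, the log2 fold change was 2.04 ± 0.41 (adjusted p 0.123 in edgeR, 0.000496 in DESeq2). POSTN, which encodes periostin, was at 33.4 and 283 CPM in stented static and at 1037 and 795 CPM in low-flow. Tenascin C (TNC) was at 135 and 623 CPM in stented static and at 1727 and 1166 CPM in low-flow. In both genes the groups did not overlap, and the stented static libraries lay further apart than the low-flow ones (adjusted p 0.323 and 0.341).

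The synthetic and matricellular list had 16 tested members, of which 0 passed the threshold in edgeR. At an unadjusted p under 0.05, 10 were higher in low-flow and 0 lower (over all genes tested, 5.35% and 5.94%). Both low-flow libraries lay above both stented static libraries in 12 members and below both in 0 (over all genes tested, 23% and 21.8%). The median log2 fold change of the list was 1.37, against -0.03 over all genes tested, and it was 1.00 without stented static replicate 1. DESeq2 called 5 of the 16, all higher (over the genes it tested, 1.27% higher and 1.08% lower). VIM, KLF5, LGALS3 and MGP were the 4 members whose groups overlapped.

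Fibril-forming and fibril-associated collagens differed between members. COL11A1, a minor fibrillar collagen that seeds fibrils, was at 0.79 and 3.71 CPM in stented static and at 36.1 and 53.6 CPM in low-flow (log2 fold change 4.36 ± 1.02, adjusted p 0.183 in edgeR and 9.4e-05 in DESeq2). COL12A1, a collagen that binds along fibrils, was at 33.3 and 110 CPM against 711 and 552 CPM (3.15 ± 0.78, adjusted p 0.217). Neither gene's groups overlapped. COL1A1, the main chain of type I collagen, was at 7555 and 13850 CPM in stented static and at 24939 and 25428 CPM in low-flow. Its log2 fold change was 1.23 ± 0.58, with a 95% interval of -0.05 to 2.52. The adjusted p was 0.458 in edgeR and 0.298 in DESeq2, and native vessels were at 20529 and 26006 CPM. LOX, the enzyme that cross-links collagen and elastin, was at 104 and 325 CPM in stented static and at 803 and 693 CPM in low-flow. The collagen-modifying genes PLOD1 and SERPINH1 went the other way without overlap, with log2 fold changes of -0.56 ± 0.41 and -0.48 ± 0.45.

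Of 26 tested members of the fibrillar collagen and assembly list, 0 passed in edgeR. At an unadjusted p under 0.05, 8 were higher and none was lower (over all genes tested, 5.35% and 5.94%). DESeq2 called 3, all higher (over the genes it tested, 1.27% higher and 1.08% lower). Groups were apart with low-flow above in 16 members and below in 3 (over all genes tested, 23% and 21.8%). The median log2 fold change was 0.65 with all libraries, 0.66 without stented static replicate 1 and 1.36 without replicate 2.

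Most tested basement membrane genes stood higher in low-flow without overlap. LAMA4, a laminin chain of vascular basement membranes, was at 178 and 210 CPM in stented static and at 503 and 452 CPM in low-flow (log2 fold change 1.30 ± 0.29, adjusted p 0.149 in edgeR and 0.00131 in DESeq2). COL15A1, which links basement membrane to the underlying matrix, was at 187 and 171 CPM against 633 and 576 CPM (1.75 ± 0.45, adjusted p 0.227). Leaving out single libraries moved these log2 fold changes between 1.18 and 1.43 for LAMA4 and between 1.69 and 1.82 for COL15A1. COL18A1, which carries the endostatin fragment, was at 326 and 500 CPM in stented static and at 1116 and 1023 CPM in low-flow, and native vessels stood above both groups at 3330 and 3490 CPM. Its log2 fold change was 1.37 ± 0.34, but 1.09 without stented static replicate 1 and 1.72 without replicate 2. COL4A2, a chain of the main basement membrane collagen, was slightly lower in low-flow, at 5274 and 5282 CPM against 4207 and 4396 CPM (-0.30 ± 0.27, adjusted p 0.693). The elastic fibre gene ELN was at 295 and 881 CPM against 1587 and 945 CPM, and native vessels held 4730 and 5307 CPM.

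Of the 18 tested basement membrane and elastic fibre genes, 0 passed in edgeR. At an unadjusted p under 0.05, 8 were higher in low-flow and 0 lower (over all genes tested, 5.35% and 5.94%). Low-flow lay above without overlap in 15 and below in 2, COL4A2 and FBLN1 (over all genes tested, 23% and 21.8%). The median log2 fold change was 0.85, and 0.81 without stented static replicate 1. DESeq2 called 4, all higher (over the genes it tested, 1.27% higher and 1.08% lower).

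Proteases of the matrix held some of the widest gaps. MMP9, a gelatinase that cuts denatured collagen and basement membrane (chr17:48179690-48186782), was at 26.9 and 5.35 CPM in stented static and at 178 and 480 CPM in low-flow. The groups did not overlap, and the log2 fold change was 4.35 ± 0.71 (adjusted p 0.0933 in edgeR, 4.5e-08 in DESeq2). Native vessels held 0.130 and 0.0575 CPM, below the level of 3 counts, and MMP9 passed against native in both groups, with log2 fold changes of 11.71 in low-flow and 7.37 in stented static. High-flow vessels were at 351 and 317 CPM, in the range of low-flow.

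MMP12, the macrophage elastase, was at 0.079 and 0.547 CPM in stented static and at 9.55 and 70.6 CPM in low-flow, with the first value under the level of 3 counts. Its log2 fold change was 7.10 ± 1.27 (adjusted p 0.0935), and the low-flow libraries were themselves well apart. The inhibitor TIMP1 was at 735 and 438 CPM in stented static and at 871 and 1548 CPM in low-flow (1.04 ± 0.38, adjusted p 0.344). Among 22 tested proteases and inhibitors, 5 were higher at an unadjusted p under 0.05 and 0 lower (over all genes tested, 5.35% and 5.94%). The list's median log2 fold change was still -0.11, since genes such as ADAMTS1, ADAMTS5 and CTSB had negative values. The median was 0.47 without stented static replicate 1. SLPI, a secreted inhibitor of leukocyte elastase (chr17:47595804-47598364), was at 2.65 and 2.43 CPM in stented static and at 64.9 and 38.0 CPM in low-flow. Its log2 fold change of 4.33 ± 0.67 had an adjusted p of 0.0933 in edgeR and 6.43e-09 in DESeq2, and native vessels were between the groups at 7.49 and 8.92 CPM.

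PRSS35, which encodes a secreted protein related to serine proteases (chr1:82714880-82734883), had the smallest p of all genes. It was at 0.474 and 0.608 CPM in stented static, from 12 and 10 counts, and at 28.6 and 36.1 CPM in low-flow. The log2 fold change was 5.90 ± 0.74 (adjusted p 0.0933 in edgeR, 3.45e-14 in DESeq2), and it stayed between 5.71 and 6.08 when single libraries were left out. Native vessels held 0.456 and 0.460 CPM, and the high-flow and stented high-flow libraries held 26.5 to 130 CPM. The gene was thus near its native level in stented static and passed against native in low-flow (adjusted p 0.00112).

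**Figure D2:**
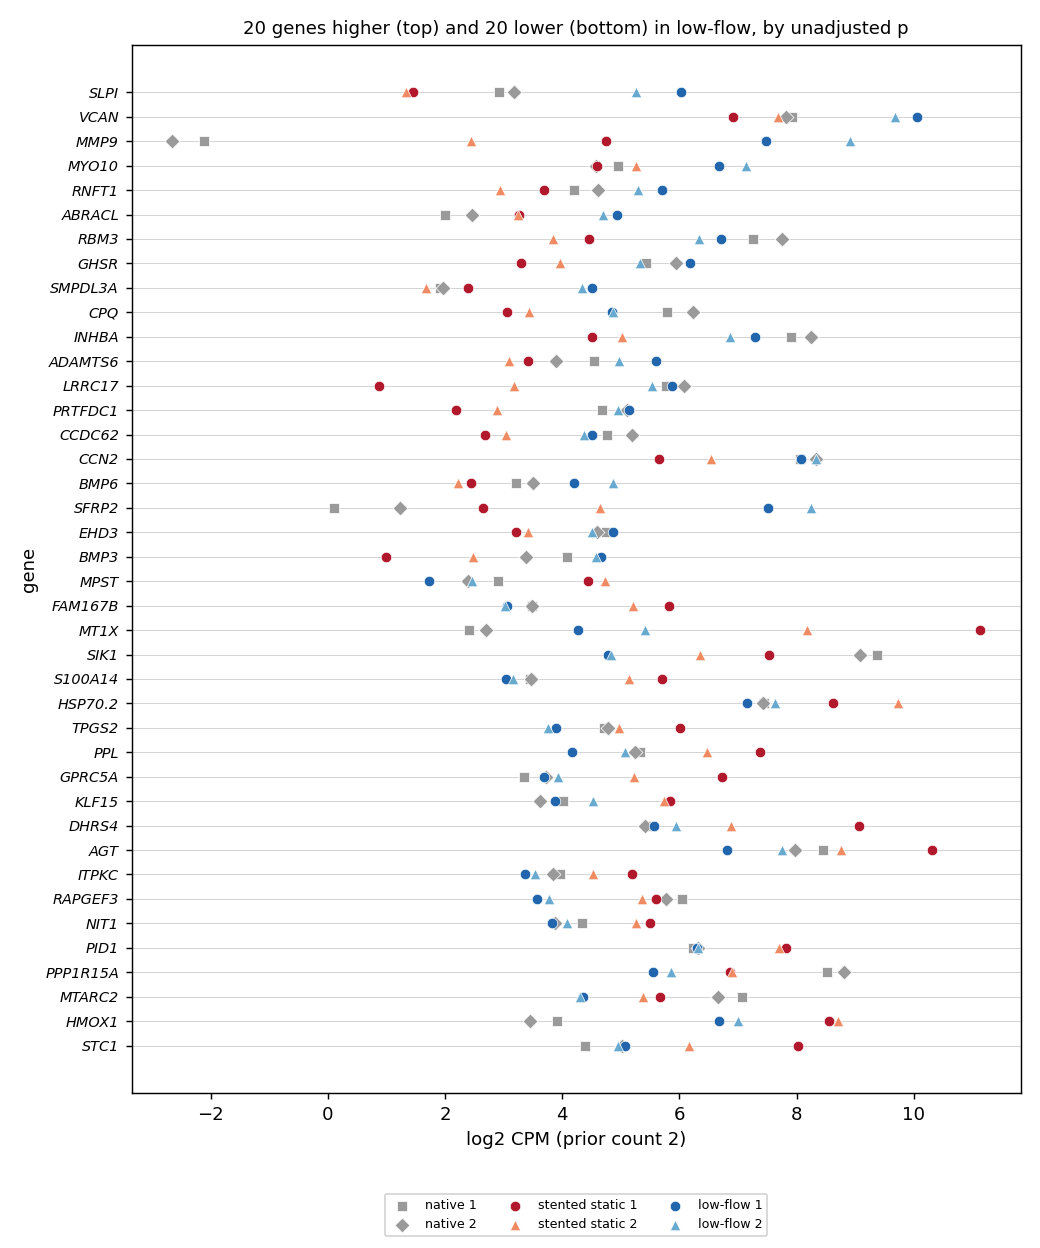
Log2 CPM (x axis, prior count 2) of the 20 genes higher and the 20 genes lower in low-flow with the smallest unadjusted p (y axis), among genes that carry a symbol, average log2 CPM 3 or more and do not overlap between groups. Each point is 1 library, with stented static in red and orange, low-flow in blue and native in grey, and the 4 cultured points of each row separate by group because the choice required it.

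Genes of the contractile apparatus were low in stented static replicate 1 and differed widely between the stented static libraries. ACTA2, smooth muscle alpha actin (chr14:100868145-100886732), was at 42.6 and 624 CPM in stented static, at 3168 and 2793 CPM in low-flow and at 7661 and 9667 CPM in native vessels. Low-flow lay above stented static without overlap, and the log2 fold change was 3.16 ± 0.91 (adjusted p 0.254 in edgeR, 0.00646 in DESeq2). It was 2.25 without stented static replicate 1 and 6.13 without replicate 2, where the adjusted p was 0.0055.

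MYH11, the smooth muscle myosin heavy chain, was at 65.5 and 685 CPM in stented static and at 1944 and 2568 CPM in low-flow, and native vessels held 11137 and 12614 CPM. The log2 fold change was 2.59 ± 1.13 (adjusted p 0.425 in edgeR and 0.256 in DESeq2). CNN1, which encodes calponin, an actin-binding regulator of contraction, was at 24.7 and 192 CPM against 505 and 473 CPM. Its log2 fold change was 2.18 ± 0.91 (adjusted p 0.403 in edgeR and 0.154 in DESeq2). In all 3 genes the order was the same, with stented static replicate 1 lowest, then stented static replicate 2, then both low-flow libraries, then native. Low values were not particular to stented static vessels. High-flow vessels were at 82.0 and 1030 CPM for MYH11, 48.1 and 343 CPM for CNN1 and 865 and 2203 CPM for ACTA2. Stented high-flow vessels were at 280 to 934 CPM for MYH11, 205 to 362 CPM for CNN1 and 2161 to 3022 CPM for ACTA2. Smooth muscle gamma actin, ACTG2, was at 5.41 and 47.3 CPM in stented static and at 568 and 239 CPM in low-flow (3.94 ± 0.85, adjusted p 0.149 in edgeR and 3.71e-05 in DESeq2). The actin genes are close in sequence, and the sources used here do not give how reads that match both were counted.

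All 18 matched contractile genes were tested. In edgeR 0 passed, and 8 were higher in low-flow at an unadjusted p under 0.05 and 0 lower (over all genes tested, 5.35% and 5.94%). DESeq2 called 3, all higher (over the genes it tested, 1.27% higher and 1.08% lower). Low-flow lay above without overlap in 14 (over all genes tested, 23%), and the groups overlapped in DES, TAGLN and SYNPO2, among others. The median log2 fold change was 1.47, but 0.77 without stented static replicate 1 and 3.11 without replicate 2. Desmin (DES), the intermediate filament of muscle, was at 50.03 and 481 CPM in stented static against 406 and 367 CPM in low-flow. TAGLN was at 13.5 and 26.7 CPM against 16.1 and 26.7 CPM, and it was also low in native vessels, at 54.2 and 32.8 CPM. That is far below ACTA2 and MYH11 in native vessels, and whether the identifier paired with TAGLN covers the gene was not tested. In whole-vessel RNA, fewer cells of a type and less RNA of a gene per cell cannot be told apart.

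Cytoskeletal and mechanosensing genes showed smaller differences. VCL, which encodes vinculin, the protein that ties actin to focal adhesions, was at 62.7 and 153 CPM in stented static and at 288 and 316 CPM in low-flow (log2 fold change 1.49 ± 0.40, adjusted p 0.246). FLNA, which encodes the actin cross-linker filamin A, was at 1834 and 3228 CPM against 6003 and 5654 CPM (1.20 ± 0.36, adjusted p 0.275). MYO10, a myosin of filopodia, was at 24.1 and 38.2 CPM against 102 and 141 CPM (1.96 ± 0.33, adjusted p 0.0933 in edgeR and 2.64e-05 in DESeq2). None of the 3 overlapped between groups. Over the 19 mechanosensing and YAP target genes, 4 were higher at an unadjusted p under 0.05 and 0 lower (over all genes tested, 5.35% and 5.94%). The median log2 fold change was 0.49, but 0.31 without low-flow replicate 2. The shear and stretch channels PIEZO2 and TRPV4 had negative values without overlap (-0.88 and -0.59), and the YAP target ANKRD1 was at 3.68 and 8.27 CPM in stented static and at 3.21 and 3.29 CPM in low-flow.

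**Figure D3:**
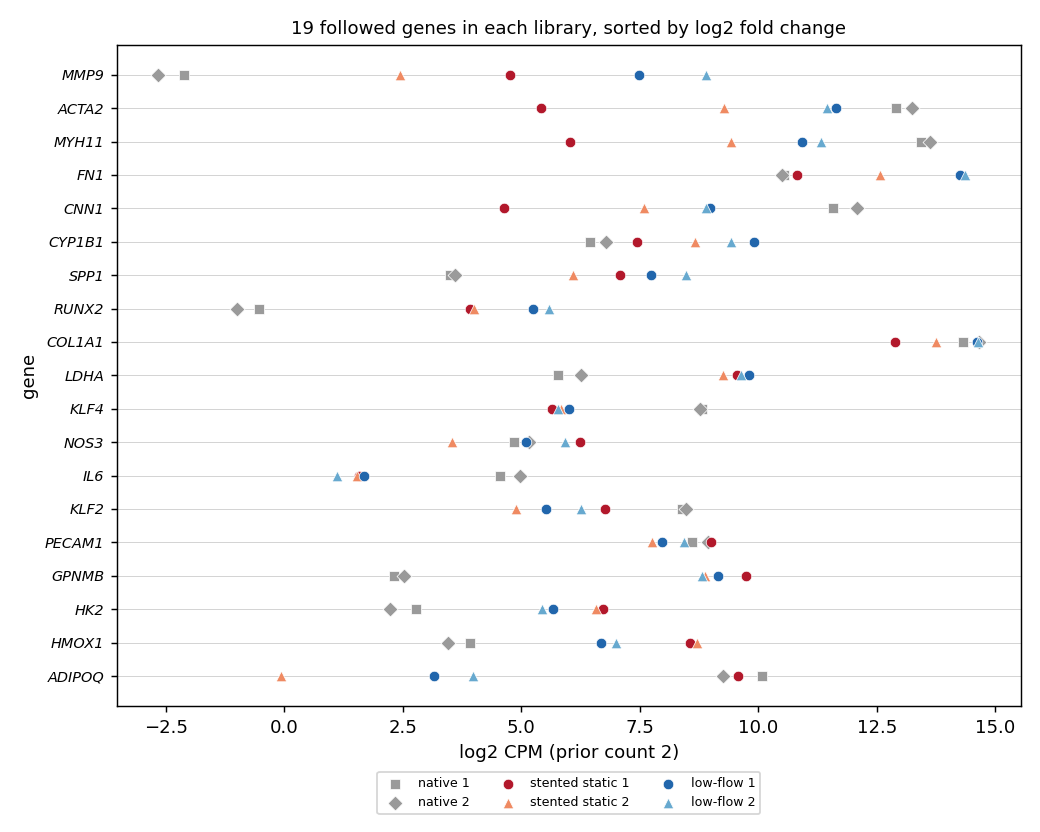
Log2 CPM (x axis, prior count 2) of the 19 genes followed whatever their result (y axis, sorted by log2 fold change), 1 point a library, with stented static in red and orange, low-flow in blue and native in grey. The stented static points of ACTA2, MYH11, CNN1 and ADIPOQ lie far apart, whereas the low-flow points of each of these genes lie close together.

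Growth factors of the TGF-beta and BMP families, which steer matrix production and smooth muscle state, were higher in low-flow in several cases. The identifier paired, with some doubt, with the symbol INHBA, the activin A subunit, was at 22.7 and 32.2 CPM in stented static and at 157 and 116 CPM in low-flow (log2 fold change 2.32 ± 0.44, adjusted p 0.108 in edgeR and 0.000122 in DESeq2). Both groups were below native vessels (240 and 303 CPM), high-flow (963 and 474 CPM) and stented high-flow vessels (324 to 690 CPM). BMP6, a BMP ligand, was at 5.33 and 4.56 CPM against 18.4 and 29.2 CPM (2.26 ± 0.45, adjusted p 0.123). The receptor TGFBR1 was at 28.6 and 39.7 CPM in stented static and at 83.8 and 70.1 CPM in low-flow, and the ligand TGFB3 at 12.8 and 47.1 CPM against 75.6 and 59.8 CPM. The groups did not overlap in any of these 4 genes.

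ID3, a transcriptional regulator induced by BMP signalling, was lower in low-flow, at 233 and 225 CPM in stented static and 91.7 and 135 CPM in low-flow (-1.01 ± 0.35, adjusted p 0.323). TGFB1 itself overlapped between groups, at 141 and 75.8 CPM against 72.7 and 101 CPM, with a 95% interval of the log2 fold change of -1.01 to 0.37. Of 23 tested members of the list, 8 were higher and 1, ID3, was lower at an unadjusted p under 0.05 (over all genes tested, 5.35% and 5.94%). DESeq2 called 2, both higher (over the genes it tested, 1.27% higher and 1.08% lower), and edgeR called 0. The median log2 fold change was 0.60.

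Genes of the Wnt pathway contributed 3 of the wider gaps. SFRP2, a secreted Wnt modulator, was at 6.16 and 24.9 CPM in stented static and at 183 and 303 CPM in low-flow (log2 fold change 3.97 ± 0.81, adjusted p 0.129 in edgeR and 1.48e-05 in DESeq2). It passed against native in both groups, with native at 0.977 and 2.24 CPM. SFRP1, a related Wnt modulator, was at 53.9 and 70.7 CPM against 222 and 211 CPM (1.80 ± 0.40, adjusted p 0.153), with native above both at 412 and 399 CPM. WNT5A, a non-canonical Wnt ligand, was at 2.85 and 5.05 CPM against 23.3 and 22.4 CPM (2.54 ± 0.66, adjusted p 0.229). DLL4, an endothelial Notch ligand, was the member lower at an unadjusted p under 0.05, at 68.6 and 30.6 CPM in stented static and 19.2 and 22.7 CPM in low-flow. Of 25 tested Wnt and Notch genes, 6 were higher and 1 lower at that level (over all genes tested, 5.35% and 5.94%). The median log2 fold change was 0.12, but 0.81 without stented static replicate 2 and 0.29 without low-flow replicate 1.

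Bone and cartilage genes, which are known to come up in calcifying vessels, moved in both directions. The vitamin D receptor, VDR, was at 15.3 and 22.4 CPM in stented static and at 53 and 61.7 CPM in low-flow (log2 fold change 1.61 ± 0.34, adjusted p 0.149 in edgeR and 0.00429 in DESeq2). RUNX2, the master transcription factor of bone, was at 15.1 and 15.9 CPM against 38.1 and 47.9 CPM (1.47 ± 0.44, adjusted p 0.273 in edgeR and 0.0752 in DESeq2). Both genes were near absent in native vessels, at 0.403 to 0.978 CPM, and both passed against native in each group. SPP1, which encodes osteopontin, was at 135 and 67.6 CPM in stented static and at 213 and 354 CPM in low-flow. Its log2 fold change was 1.48 ± 0.54 (adjusted p 0.344 in edgeR and 0.162 in DESeq2). TNFRSF11B, the osteoprotegerin decoy receptor, was at 2.77 and 14.6 CPM against 47.6 and 57.4 CPM (2.61 ± 0.83, adjusted p 0.299).

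ACAN, which encodes the cartilage proteoglycan aggrecan, was at 0.593 and 2.49 CPM in stented static and at 22.2 and 12 CPM in low-flow (3.49 ± 0.79, adjusted p 0.166 in edgeR and 0.000548 in DESeq2). BMP3, a BMP family member that restrains bone formation, was at 1.90 and 5.47 CPM against 25.2 and 23.9 CPM (2.75 ± 0.58, adjusted p 0.146). For both genes the low-flow libraries stood within or above the native range, 9.78 to 16.8 CPM over both genes, and above every high-flow and stented high-flow library, which held 0.667 to 5.61 CPM. Low-flow against high-flow gave log2 fold changes of 4.62 for ACAN (adjusted p 0.136) and 3.77 for BMP3 (adjusted p 0.0609), so neither passed there. Lower in low-flow were ALPL, the phosphatase that starts mineral deposition, at 8.58 and 1.64 CPM against 0.428 and 0.874 CPM, and MSX1, at 22.5 and 11.6 CPM against 5.48 and 7.83 CPM. Among 17 tested bone and cartilage genes, 7 were higher and 2 lower at an unadjusted p under 0.05 (over all genes tested, 5.35% and 5.94%). The median log2 fold change was 0.92. DESeq2 called 5, all higher (over the genes it tested, 1.27% higher and 1.08% lower), and edgeR called 0.

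MT1X encodes a metallothionein, a small protein that binds zinc and copper and is induced by metals and stress. It was at 2247 and 291 CPM in stented static, at 19.3 and 42.3 CPM in low-flow and at 5.21 and 6.38 CPM in native vessels. The groups did not overlap, and the log2 fold change was -5.36 ± 0.93 (adjusted p 0.0933 in edgeR, 1.56e-09 in DESeq2). It was -3.24 without stented static replicate 1, and -6.18 without replicate 2 with an adjusted p of 0.0055. MT1X passed against native in stented static (7.77, adjusted p 0.00152) and not in low-flow (2.41, adjusted p 0.0832). High-flow and stented high-flow libraries lay at 13.6 to 44.6 CPM, below both stented static libraries. Metallothionein genes are near-identical copies, so the share of reads given to each is uncertain.

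Haem and oxidative stress genes divided. HMOX1, the haem oxygenase that breaks down haem, was at 376 and 418 CPM in stented static and at 103 and 128 CPM in low-flow (log2 fold change -1.78 ± 0.41, adjusted p 0.183 in edgeR and 0.00509 in DESeq2). Leaving out single libraries moved it only between -1.95 and -1.62, and native vessels held 14.9 and 10.8 CPM, below both groups. SOD2, the mitochondrial superoxide dismutase, was at 1488 and 757 CPM against 290 and 431 CPM (-1.64 ± 0.47, adjusted p 0.254). SLC7A11, the cystine importer that feeds glutathione synthesis, had the opposite direction, at 6.13 and 15.0 CPM in stented static and 58.5 and 40.8 CPM in low-flow (2.24 ± 0.48, adjusted p 0.149 in edgeR and 0.00137 in DESeq2). GCLC, the glutathione-synthesising ligase subunit, was also higher, at 13.2 and 16.4 CPM against 28.3 and 33.9 CPM. Of 18 tested members of the NRF2 and haem list, 3 were higher and 3 lower at an unadjusted p under 0.05 (over all genes tested, 5.35% and 5.94%). The median log2 fold change was -0.11, but 0.34 without stented static replicate 1 and -0.51 without replicate 2.

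Among 18 tested genes of the unfolded protein and heat shock list, low-flow lay below stented static without overlap in 9 (over all genes tested, 21.8%). The groups overlapped in the other 9. The gene labelled HSP70.2, an inducible HSP70 chaperone with near-identical copies, was at 392 and 854 CPM in stented static and at 142 and 198 CPM in low-flow (-1.87 ± 0.38, adjusted p 0.123 in edgeR and 0.000496 in DESeq2). The low-flow values lay on either side of native, at 175 and 172 CPM. The small heat shock protein HSPB1 was at 555 and 494 CPM against 212 and 274 CPM (-1.11 ± 0.40, adjusted p 0.34). HSPA5, the chaperone of the endoplasmic reticulum, overlapped, at 615 and 748 CPM against 746 and 573 CPM. In that list 0 members were higher and 4 lower at an unadjusted p under 0.05 (over all genes tested, 5.35% and 5.94%), and neither edgeR nor DESeq2 called any. Its median log2 fold change was -0.22, with a range of -0.35 (without low-flow replicate 1) to -0.046 (without stented static replicate 2).

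Further genes that were lower in low-flow without overlap included metabolic and signalling genes. MPST, a mitochondrial and cytosolic sulphurtransferase (chr5:10739179-10749826), was at 21.5 and 26.3 CPM in stented static and at 3.21 and 5.38 CPM in low-flow (-2.47 ± 0.39, adjusted p 0.0933 in edgeR and 3.88e-07 in DESeq2). The identifier paired, also with some doubt, with the symbol KLF15, a transcription factor induced by glucocorticoids, was at 57.3 and 53.3 CPM against 14.6 and 23 CPM (-1.56 ± 0.34, adjusted p 0.149). PID1, a regulator of insulin signalling, was at 225 and 207 CPM against 79.0 and 79.6 CPM (-1.45 ± 0.33, adjusted p 0.166). For these 3 genes the stented static libraries lay close together, and low-flow was at or near the native level. SIK1, a salt-inducible kinase, was at 185 and 81.4 CPM in stented static and at 27.5 and 28.5 CPM in low-flow (-2.25 ± 0.41, adjusted p 0.0985), and native stood above both at 663 and 540 CPM. AGT, which encodes angiotensinogen, the precursor of angiotensin, was at 1269 and 431 CPM against 112 and 216 CPM (-2.37 ± 0.52, adjusted p 0.149).

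APLNR, the apelin receptor of endothelium, was at 10.04 and 4.01 CPM in stented static and at 0.771 and 0.629 CPM in low-flow (-3.33 ± 0.54, adjusted p 0.0933 in edgeR and 2.09e-06 in DESeq2). Native vessels held 104 and 111 CPM, so both cultured groups were far below native and both passed against it.

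Glycolytic and hypoxia genes leaned towards stented static. HK2, the inducible hexokinase, was at 106 and 95.9 CPM in stented static and at 50.7 and 43.3 CPM in low-flow. Its log2 fold change was -1.11 ± 0.45 (adjusted p 0.393 in edgeR and 0.257 in DESeq2). Both groups passed against native, where HK2 held 6.71 and 4.60 CPM. LDHA, lactate dehydrogenase, was at 751 and 613 CPM against 895 and 793 CPM, slightly higher in low-flow, with a 95% interval of -0.53 to 1.14 around a log2 fold change of 0.31. Of 26 tested members, 0 were higher and 5 lower at an unadjusted p under 0.05 (over all genes tested, 5.35% and 5.94%). The median log2 fold change of -0.44 was -0.05 without stented static replicate 1 and -0.82 without replicate 2. Neither edgeR nor DESeq2 called any member. Genes of cholesterol and fatty acid synthesis behaved likewise, with a median of -0.65 over 27 members that was -0.02 without stented static replicate 1 and -1.13 without replicate 2. FASN, fatty acid synthase, shows it, at 2560 and 351 CPM in stented static and 249 and 236 CPM in low-flow.

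Among 17 tested flow-responsive endothelial genes the groups overlapped in 9, near the share over all genes tested (8485 of 15348). Low-flow lay above without overlap in 7 and below in 1 (over all genes tested, 23% and 21.8%). KLF2, a transcription factor induced by laminar flow, was at 108 and 29.3 CPM in stented static and at 45.5 and 76.6 CPM in low-flow (log2 fold change -0.18 ± 0.49, 95% interval -1.25 to 0.90). KLF4, its relative, was at 50.3 and 57.1 CPM against 64.5 and 54.8 CPM (0.15 ± 0.33, interval -0.58 to 0.88). Both stood well below native, at 337 to 449 CPM, and each passed against native in both groups. NOS3, endothelial nitric oxide synthase, was at 75.2 and 11.6 CPM in stented static and at 34.0 and 60.4 CPM in low-flow (0.12 ± 0.63, interval -1.28 to 1.52). The interval of NOS3 is wide enough to hold a 2-fold difference in either direction.

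CYP1A1, a cytochrome P450 that shear stress and aryl hydrocarbon receptor ligands induce, was at 0.514 and 2.19 CPM in stented static and at 35.1 and 65.3 CPM in low-flow (5.26 ± 1.24, adjusted p 0.186 in edgeR and 0.00598 in DESeq2). CYP1B1, of the same family, was at 174 and 407 CPM against 957 and 692 CPM (1.51 ± 0.59, adjusted p 0.371 in edgeR and 0.175 in DESeq2). The adhesion molecule ICAM1 was at 47.6 and 48.4 CPM against 71.6 and 107 CPM. These 3 were the members with an unadjusted p under 0.05 (over all genes tested, 11.3%) among 17 flow-responsive genes, whose median log2 fold change was 0.59. It was 0.30 without low-flow replicate 2 and 0.34 without stented static replicate 2. THBD, also to be followed, matched no symbol in the tables.

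Inflammatory mediators differed between members. CXCL8, the neutrophil chemokine interleukin 8, was at 0.790 and 0.304 CPM in stented static and at 5.82 and 15.8 CPM in low-flow (log2 fold change 4.24 ± 0.91, adjusted p 0.149 in edgeR and 9.9e-05 in DESeq2). PTGS2, the inducible cyclooxygenase, was at 8.30 and 8.76 CPM against 36.4 and 39.3 CPM (2.15 ± 0.63, adjusted p 0.257), and its range in the high-flow and stented high-flow libraries was 99.2 to 619 CPM. IL6 was at 2.88 and 2.80 CPM against 3.13 and 2.06 CPM (-0.14 ± 0.71), and native vessels held 23.3 and 31.1 CPM. PTGES, the prostaglandin E synthase, was lower in low-flow, at 43.1 and 27.4 CPM against 14.2 and 16.6 CPM. Of 20 tested cytokine and chemokine genes, 5 were higher and 1 lower at an unadjusted p under 0.05 (over all genes tested, 5.35% and 5.94%). The median log2 fold change was 0.56. It was 0.85 without low-flow replicate 1, 0.038 without low-flow replicate 2, 1.27 without stented static replicate 1 and 0.28 without stented static replicate 2.

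**Figure D4:**
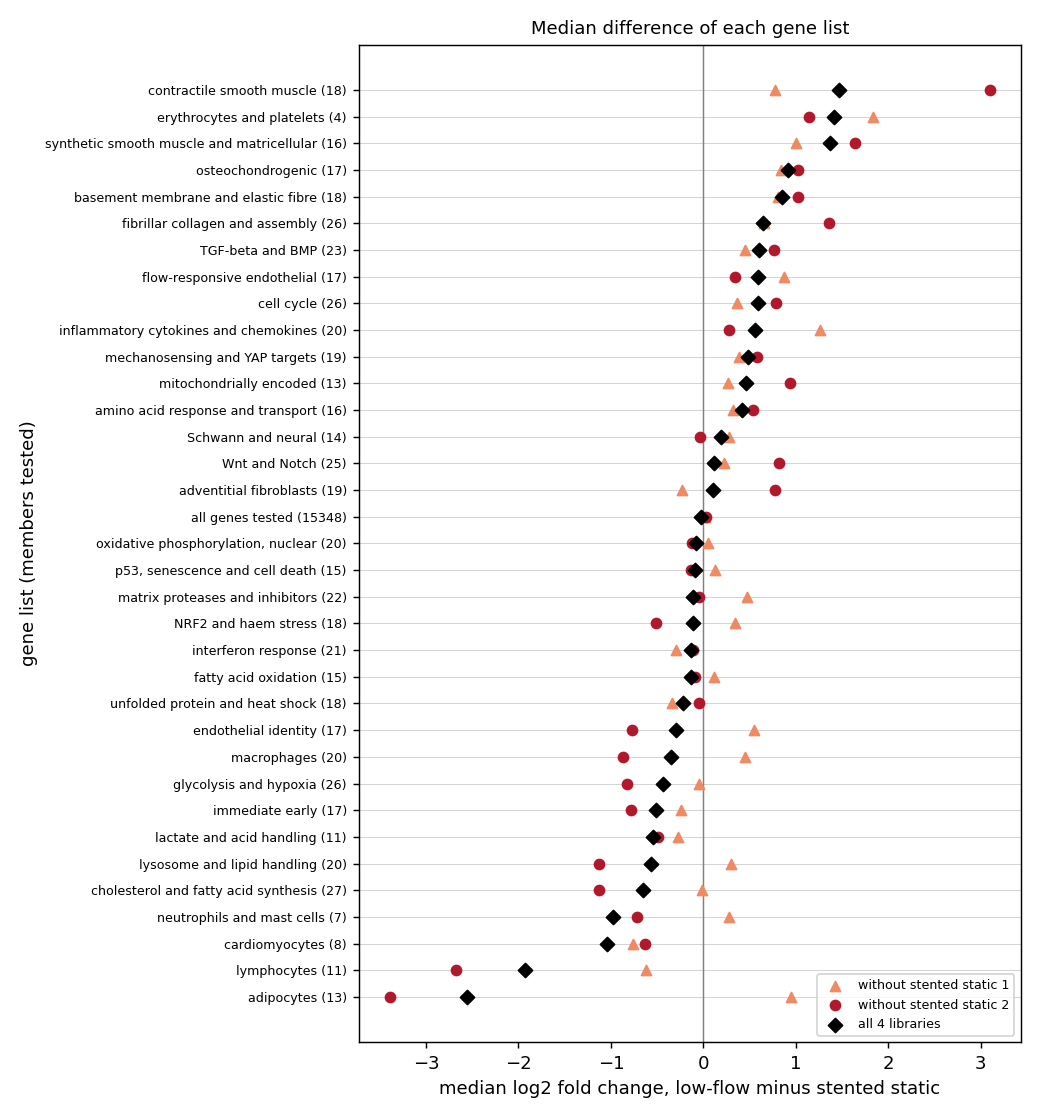
Median log2 fold change (x axis, low-flow minus stented static) of each gene list and of all genes tested (y axis, members tested in brackets). Black diamonds use all 4 libraries, orange triangles leave out stented static replicate 1 and red circles leave out stented static replicate 2. Contractile genes go from 0.77 to 3.11 and adipocyte markers from 0.95 to -3.39 between these settings.

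Cell type markers showed that stented static replicate 1 stood apart from the other 3 libraries. The summed level of the 15 matched adipocyte markers was 3208 CPM in stented static replicate 1 and 288 CPM in replicate 2, against 223 and 329 CPM in low-flow. ADIPOQ, the adipocyte hormone adiponectin, was at 765 and 0.852 CPM in stented static, at 8.86 and 15.7 CPM in low-flow and at 1075 and 615 CPM in native vessels. Its log2 fold change of -4.96 ± 2.01 had an adjusted p of 0.386 in edgeR and 0.309 in DESeq2. That log2 fold change became 3.84 without stented static replicate 1. Of 13 tested adipocyte markers, 11 were lower at an unadjusted p under 0.05 (over all genes tested, 5.94%). Only 2 of them, GPD1 and LPL, were lower without overlap (over all genes tested, 21.8%). RETN and ADRB3 had 0 counts in both low-flow libraries. FASN and AGT, which adipocytes also express, and the fatty acid list moved with these markers, and the part of adipocytes in those differences was not tested.

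Endothelial identity markers summed to 2635 and 1157 CPM in stented static and to 1308 and 1710 CPM in low-flow. PECAM1, an endothelial adhesion molecule, was at 513 and 218 CPM against 249 and 347 CPM (-0.29 ± 0.42), and all 17 matched markers had counts. PLVAP and KDR were the 2 endothelial members lower at an unadjusted p under 0.05 (over all genes tested, 5.94%). They were at 468 and 119 CPM against 63.7 and 75.5 CPM and at 51.4 and 20.6 CPM against 12.8 and 14.6 CPM. Macrophage markers summed to 2673 and 1171 CPM in stented static and to 1113 and 1380 CPM in low-flow, with none of the 20 matched markers at 0. GPNMB, a glycoprotein of lipid-laden macrophages, was at 860 and 468 CPM against 570 and 452 CPM, and at 4.88 and 5.64 CPM in native. Lymphocyte markers summed to 80.4 and 25.9 CPM in stented static and to 36.4 and 48.9 CPM in low-flow, where CD3D, CD3E and CD79B were at 0. CD3E was also close to the level of 3 counts in stented static, at 0.356 and 0.0608 CPM, and at 0 in every high-flow and stented high-flow library. MS4A1 was at 0 in all 4 libraries. Neutrophil and mast cell markers summed to 110 and 56.6 CPM against 59.0 and 61.3 CPM.

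Adventitial fibroblast markers summed to 6545 and 7643 CPM in stented static and to 6834 and 6752 CPM in low-flow. Low-flow lay above without overlap in 5 of 19 members and below in 4, near the shares over all genes tested (23% and 21.8%). PI16, a marker of adventitial progenitors, was at 2.29 and 3.47 CPM against 6.42 and 12.8 CPM, and CLEC3B at 62.8 and 27.7 CPM against 12.1 and 13.1 CPM. Contractile smooth muscle markers, which define the main cell type of the labelled tissue, were present in every library and summed to 1615 and 5820 CPM in stented static and to 12532 and 12904 CPM in low-flow. Native vessels held 46777 and 60498 CPM, so both cultured groups were below native. In the 4 libraries compared, cardiomyocyte markers stayed at 15.6 to 52.9 CPM and those of erythrocytes and platelets at 3.65 to 5.81 CPM. Cardiomyocyte markers summed to 1554 CPM in native replicate 1 and 99.1 CPM in native replicate 2, so the native libraries differ from each other in these markers. The part of the differing cell make-up in the gene differences above was not tested.

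**Figure D5:**
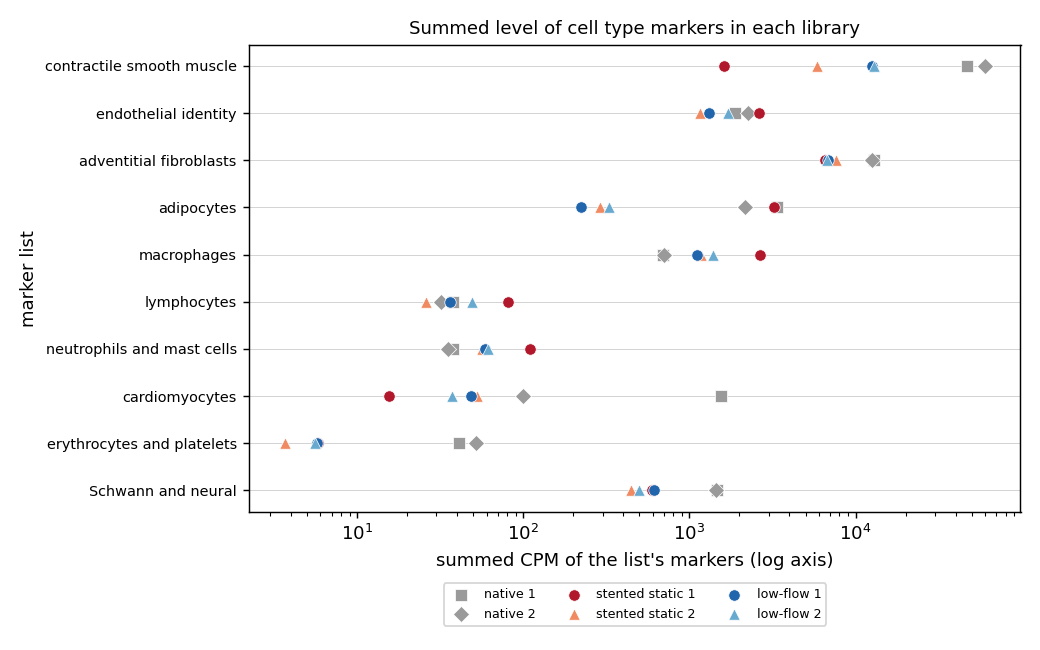
Summed CPM of each marker list (x axis, log axis) in each library (y axis, marker list), with stented static in red and orange, low-flow in blue and native in grey. Stented static replicate 1 has the highest adipocyte, macrophage, endothelial and lymphocyte sums and the lowest contractile sum of the 4 cultured libraries, and stented static replicate 2 lies nearer the low-flow libraries.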

How the data were processed

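Coronary arteries were frozen, total RNA was purified on columns with DNase, and paired-end libraries were made, per the labels' protocols. Trimmomatic, FastQC, DESeq2 and the Sscrofa11.1 build were used by the authors, per the submitters' processing notes. The deposited counts are titled "FeatureCount", and the sources used here do not give the aligner, the counter's settings or the annotation. The authors deposited raw gene counts in 2 tables, joined on gene identifier, and their native columns are identical. The tables hold 25880 identifiers, 14857 of them with a symbol. Groups came from the sample titles.

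Counts were fitted with edgeR 4.0.16 in R 4.3.3: filterByExpr, TMM scaling and a quasi-likelihood F-test in 1 model of 5 groups and 11 libraries, with Benjamini-Hochberg adjustment over 15348 genes and a threshold of 0.05. All groups share the estimate of spread (6 residual and 5.02 prior degrees of freedom, common dispersion 0.126). Standard errors were computed back from the test, as the absolute log2 fold change over the square root of the F statistic. The 95% intervals were built from these standard errors. DESeq2 1.42.0 and voom in limma 3.58.1 were alternatives, and the script was tested on simulated data. Replicates are not stated to be separate animals, so a p-value reflects just the spread among these samples, whose source is not stated. The number in the library name differs between replicates, at 34 and 36 in stented static and 37 and 38 in low-flow.

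Genes to be named were those past the threshold (the 12 largest in each direction, and up to 4 a list), which gave 0 genes, and 20 followed genes, of which 19 matched. Some of these are among 119 genes chosen after their values were seen: the 20 smallest p-values in each direction, up to 3 members a list, and the 21 genes at the smallest adjusted p. Other list members named in the text were also chosen with their values in view. The members and the 34 lists (674 distinct genes, 618 matched, 597 tested) were chosen with earlier results of these data known. Positions were taken from RefSeq for Sscrofa11.1 through the symbol. Those of INHBA and KLF15 were in doubt and are left out, so the pairing of these 2 symbols with their identifiers is uncertain. Promoters were not analysed here, and 1 list member is not reported here.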

Additional observations from a re-analysis of the deposited data

How the results depend on the processing

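In edgeR 0 genes passed under RLE size factors, a robust dispersion, at least 10 counts in each library, a stricter threshold (0.01), a minimum fold of 1.5, the 4 libraries alone, and without mitochondrially encoded genes or native libraries, and limma-voom also called 0. More passed with DESeq2 (354; 431 on the 4 libraries alone), without a filter on low counts (144) and with sample weights in limma-voom (15). Leaving out single libraries gave between 0 and 161 calls. The cause of these differences was not tested. Whether the replicate numbers pair the groups is not stated. The correlation of replicate differences was -0.311, but its sign depends on the order of numbering, so it cannot decide this. Under the replicate block 4 genes passed: PRSS35, MAMDC2 and SLPI higher and ARC lower in low-flow. With the pairing crossed 4 passed: PRSS35 and MMP9 higher, ARC and ENSSSCG00000023305 lower. The crossed pairing, the fit without native libraries, DESeq2 on the 4 libraries and the sample weights were chosen after seeing the data, and these genes were named after their values were seen.

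Of 2517 log2 fold changes of 134 named genes under 19 alternatives, 2205 kept direction and side of the threshold, 298 passed it and 14 reversed, in 10 genes. Leaving out single libraries gave log2 fold changes from -7.21 (without stented static replicate 2) to 7.10 (without replicate 1) for PCK1, and between these same settings from -3.45 to 0.021 for PPARG, -5.94 to 3.84 for ADIPOQ, -3.83 to 3.04 for S100A12, -0.74 to 0.12 for GPNMB, -0.77 to 0.45 for PECAM1, -0.82 to 1.05 for KLF2 and -0.66 to 2.03 for NOS3. S100A8 ranged from -4.41 (without low-flow replicate 2) to 0.28 (without stented static replicate 1) and IL6 from -0.46 to 0.14 (without low-flow replicates 1 and 2 in turn). NOS3 was also negative, at -0.35, without low-flow replicate 2. KLF2 was at 0.048 with limma-voom, 0.034 with sample weights and 0.15 without low-flow replicate 1. Depth limits genes near 3 counts, 0.105 to 0.215 CPM.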
